A study of Mus musculus with 6 samples.

Results

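Genes of glycolysis, of lactate and pyruvate handling and of the hypoxia response were followed in mouse embryonic fibroblasts of strain B6CBAF1/J under reprogramming, in which delivered transcription factors turn differentiated cells towards pluripotency. The set was a list of 34 genes picked by function: 2 glucose transporters, 2 hexokinases, 15 genes of the later glycolytic steps, 7 genes of lactate and pyruvate handling and 8 genes of the hypoxia response. A gene was read from a probe set that names it alone, the brightest one where there were several. This gave 32 of the 34 genes, with 68 probe sets between them, and 31 of the 34 entered the tests, out of 12622 tested genes among the 18193 genes named in this way. Gapdh was named alone only by control probe sets and is given by its values. Gpi1 and Eno1 had no probe set naming them alone and were not analysed here.

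The O(5R)SK cells received SOX2, KLF4 and a version of OCT4 called 5R, and the O(WT)SK cells received SOX2, KLF4 and wild-type OCT4. What 5R stands for and how the factors were delivered are not stated in the labels. All cells grew in a stem cell medium that held serum, leukemia inhibitory factor and added pyruvate, and were harvested on day 3, 5 or 7. There is 1 Affymetrix array for each combination and day, 6 arrays in all, and hence no replicate on any day. Nothing says that the arrays came from separate cultures. In the fit of combination and day, the other combination or the other days stand in for repeats. The p-values of that fit thus reflect how far the combinations disagree in their change over the 6 arrays, part of which may be technical. A true difference in time course between the combinations would count as error there.

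Glycolysis splits glucose into pyruvate and yields ATP without oxygen. Pyruvate then either enters the mitochondrion through pyruvate dehydrogenase, which the pyruvate dehydrogenase kinases switch off, or is turned into lactate by lactate dehydrogenase and leaves the cell through monocarboxylate transporters. HIF1A, a transcription factor that prolyl hydroxylases mark for destruction when oxygen is present, drives many of these genes in low oxygen. Fibroblasts that are reprogrammed are known to move from oxidative metabolism towards glycolysis, which is the background of the list.

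Intensities are linear values on the scale the authors deposited, on which the 2% trimmed mean of every array was 500, and differences are on the scale of log2(intensity + 16), which understates changes of dim genes. The bright end was compressed on the array of O(5R)SK cells on day 7, where the highest intensity was 34285 and the 99th percentile 13069, against at least 40353 and 13984 on the other 5 arrays. That array also had the highest median intensity, 68.0 against 59.0 to 61.4 on the other 5. Many members are bright, so values after quantile normalization are given where they bear on a result. The ratio of the 3′ to the 5′ Gapdh control probe set ran from 0.768 to 0.803 over the 6 arrays. Of 10 fibroblast markers, Col1a2 read 21607, 21240 and 20424 on days 3, 5 and 7 in O(5R)SK and 26409, 27725 and 31887 in O(WT)SK. Col1a1, Col3a1, Thy1, Pdgfrb, Dcn, Postn and Vim read between 2313 and 44632 over the 6 arrays. Lum and Pdgfra were dim, at 44.0 to 134.6 and 69.1 to 103.4. Thy1 and Postn read lower on day 7 than on day 3 in both combinations.

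**Figure D1:**
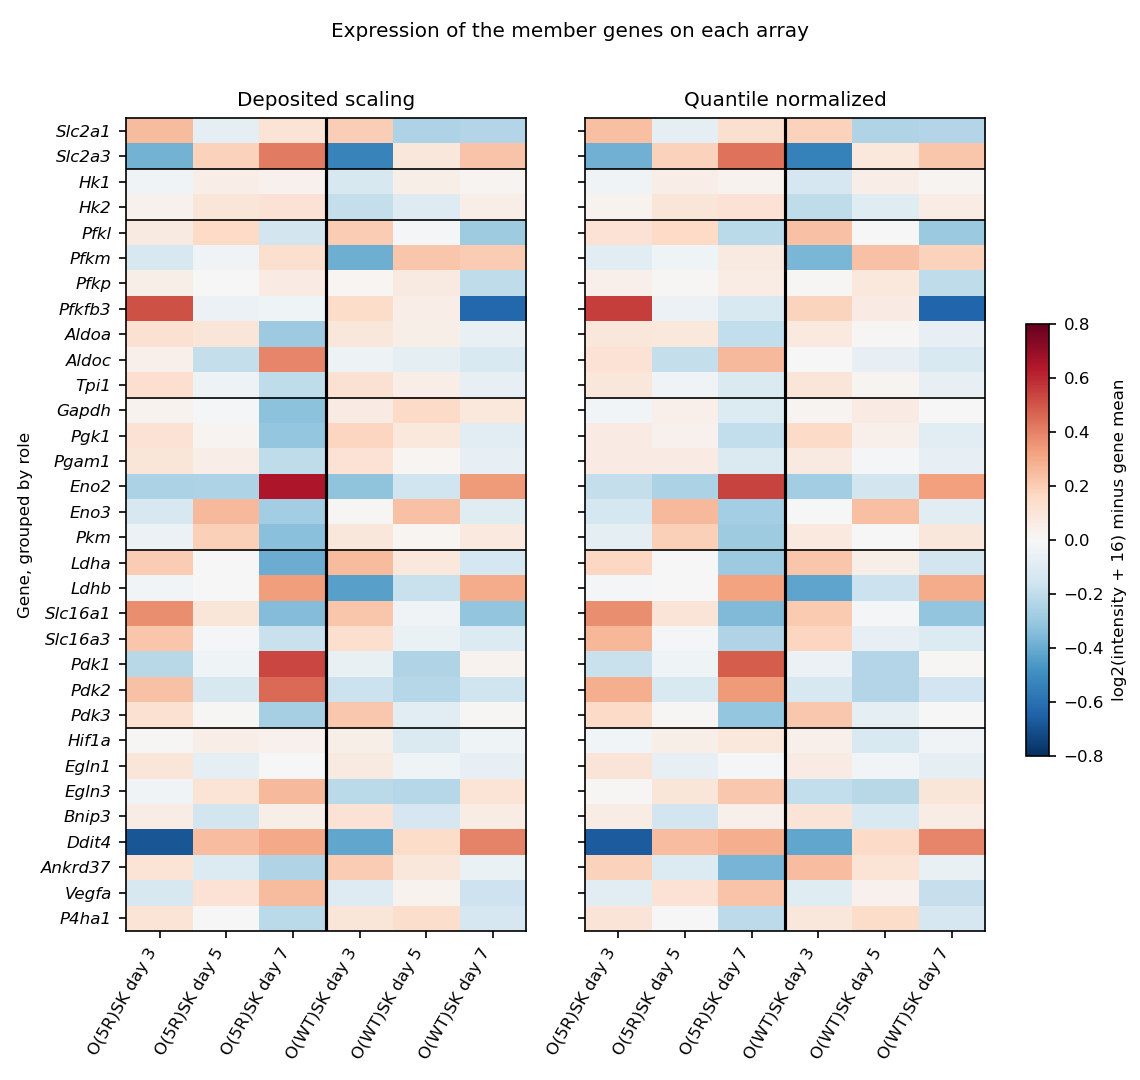
Level of each of the 32 measured members on each array, as log2(intensity + 16) minus the mean of that gene over the 6 arrays, for the deposited scaling (left) and after quantile normalization (right). Columns run over days 3, 5 and 7, O(5R)SK left of O(WT)SK, black lines divide roles, and red is above and blue below the gene's mean. Slc2a3, Eno2 and Ddit4 go from blue to red with day in both combinations, and Slc16a1 and Ldha go from red to blue.

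The comparison of day 7 with day 3 asks how the pathway changed as reprogramming went on, with both combinations in 1 fit. Over these days the second glucose transporter Slc2a3, the enolase Eno2 and the stress-response gene Ddit4 rose in both combinations, and the lactate transporter Slc16a1 fell. These 4 members passed limma's adjusted p of 0.05, 3 of 31 higher and 1 of 31 lower. Among all 12622 tested genes, 6.52% were called higher and 3.68% lower, so the members' shares, 9.68% and 3.23%, stood near those of the whole array. After quantile normalization the same 4 members were called, against 5.13% of tested genes higher and 4.07% lower.

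Slc2a3 (GLUT3), a high-affinity glucose transporter best known from neurons and early embryos, read 2007, 2971 and 3503 on days 3, 5 and 7 in O(5R)SK, and 1803, 2783 and 3065 in O(WT)SK. All 4 arrays of days 5 and 7 lay above both day 3 arrays. Its day 7 minus day 3 difference was 0.78 on the log2 scale, or 1.72-fold (limma, SE 0.096, adjusted p = 0.0203). Most of that change was already there on day 5, at 0.56 in O(5R)SK and 0.62 in O(WT)SK. The probe set is of a type that can hybridise to several transcripts. A dimmer probe set of the gene gave 0.91 on average, and the mean over all 4 of its probe sets 0.49 (limma, adjusted p = 0.197). The other 2 sets, at mean intensities of 28.4 and 24.0, gave 0.66 and -0.38.

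Slc2a1 (GLUT1), the housekeeping glucose transporter of fibroblasts, read lower on day 7 and did not pass the test. It read 3411, 2717 and 3093 in O(5R)SK and 3276, 2409 and 2426 in O(WT)SK, a difference of -0.29 (SE 0.115, adjusted p = 0.182). Both day 7 arrays were below both day 3 arrays, and its other 2 probe sets also read lower on day 7, by -0.47 and -0.39 on average. The day 7 minus day 3 value of Slc2a3 less that of Slc2a1 was 0.94 in O(5R)SK and 1.19 in O(WT)SK on the log2 scale, and 0.93 and 1.18 after quantile normalization. This difference between both transporters was not tested.

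Ddit4 (REDD1), an inhibitor of mTORC1 signalling induced by low oxygen and other stresses, had the largest difference of the 31 members. It read 694.3, 1341 and 1393 in O(5R)SK, and 839.5, 1249 and 1489 in O(WT)SK. Both day 3 arrays were lower than all later arrays. The day 7 minus day 3 difference was 0.90, or 1.87-fold (limma, SE 0.127, adjusted p = 0.0260), and by day 5 it stood at 0.93 in O(5R)SK and 0.56 in O(WT)SK. Eno2, the enolase isoform best known from neurons, changed later. It read 126.5, 127.0 and 250.0 in O(5R)SK and 119.7, 136.4 and 198.8 in O(WT)SK, so only the day 7 arrays stood apart. Its difference was 0.78, or 1.72-fold (SE 0.132, adjusted p = 0.0366), and 0.67 after quantile normalization (adjusted p = 0.0434). Eno3, the muscle enolase, was highest on day 5 in both combinations, with 2405, 3152 and 2169 in O(5R)SK and 2652, 3097 and 2459 in O(WT)SK.

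Slc16a1 (MCT1), a transporter that moves lactate and pyruvate across the cell membrane, was the only member called lower in this fit. It read 1658, 1368 and 1005 in O(5R)SK, and 1494, 1258 and 1027 in O(WT)SK. It decreased from day to day in both combinations and was 1.54-fold lower on day 7 than on day 3 (log2 difference -0.62, limma, SE 0.103, adjusted p = 0.0350). With the mean of its probe sets, the other of which had a mean intensity of 9.66, the value was -0.37 and the call was lost (adjusted p = 0.126). The calls rest on few arrays. When any one of the 4 arrays of days 3 and 7 was left out, limma called 0 of the 31 members and 0 of the 12622 genes, while 2619 to 3288 genes had an unadjusted p under 0.05 and the 4 members kept their direction. Without either day 5 array, Slc16a1 alone of the 4 lost its call (adjusted p = 0.0581). Without the intensity filter, with 18193 genes tested, none of the 31 passed and 3648 genes had an unadjusted p under 0.05.

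**Figure D2:**
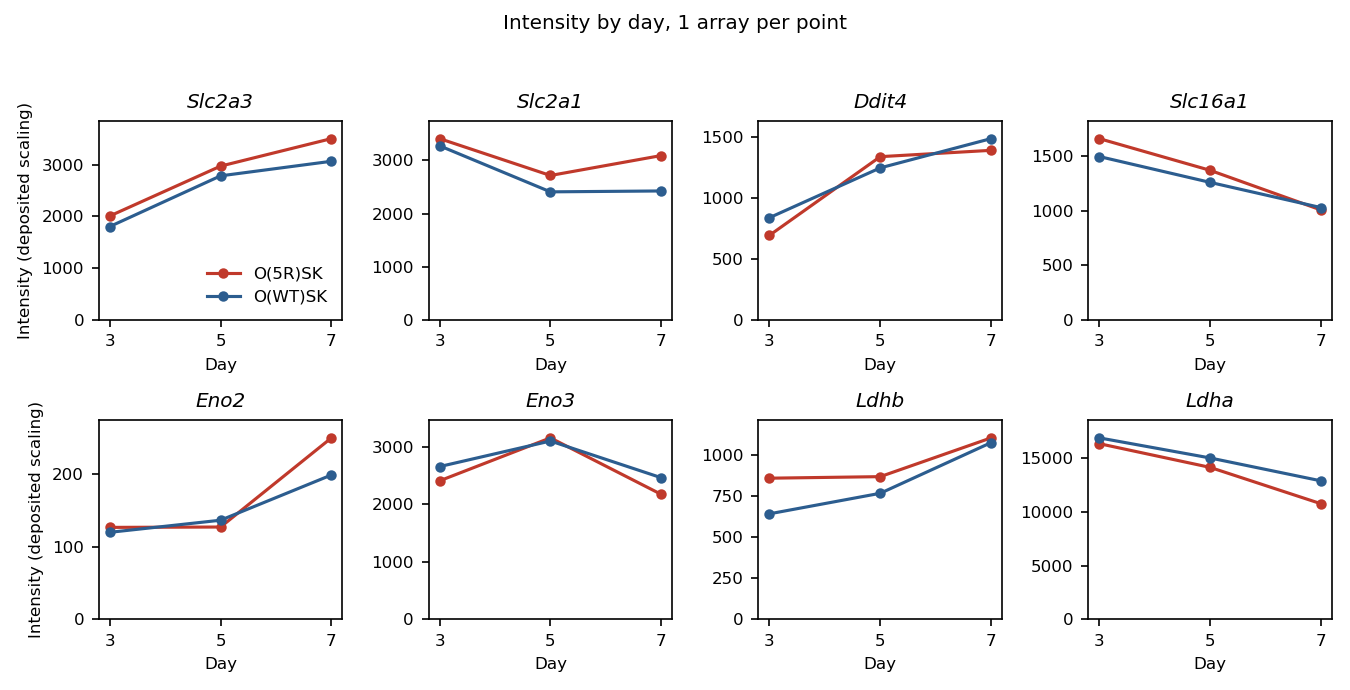
Intensity on the deposited scale (y axis, from 0) by day (x axis) for 8 members, 1 array per point, O(5R)SK in red and O(WT)SK in blue. Slc2a3, Ddit4, Eno2 and Ldhb end higher than they began and Slc16a1 and Ldha end lower in both combinations, while the lines of the combinations stay close to each other.

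Promoter sequence is shown for Slc16a1, Ddit4 and Eno2, whose change over days was called, and for Ldha and Ldhb, whose values ran in opposite directions. No window is shown for Slc2a3. The windows hold the 250 bases before the gene's start as RefSeq annotates it on GRCm38.p6, written 5′ to 3′ along the gene. Capitals mark ACGTG and GCGTG on either strand, the cores of the hypoxia response element that HIF1A binds. A palindromic match to CACGTG, also the E-box core, counts on both strands. For Ldha the first of its 2 windows is shown.
Slc16a1 promoter, chr3:104638414-104638663, + strand: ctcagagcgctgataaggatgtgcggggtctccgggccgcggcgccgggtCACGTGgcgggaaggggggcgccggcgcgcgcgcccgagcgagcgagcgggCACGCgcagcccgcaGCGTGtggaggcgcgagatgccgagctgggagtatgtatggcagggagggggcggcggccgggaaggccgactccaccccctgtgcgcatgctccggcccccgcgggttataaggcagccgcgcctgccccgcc
Ddit4 promoter, chr10:59951771-59952020, - strand: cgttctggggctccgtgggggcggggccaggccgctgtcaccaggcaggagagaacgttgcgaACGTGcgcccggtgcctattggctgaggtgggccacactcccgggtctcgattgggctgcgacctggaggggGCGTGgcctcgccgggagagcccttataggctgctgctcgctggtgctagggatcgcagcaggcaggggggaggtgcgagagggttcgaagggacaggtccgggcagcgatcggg
Ldha promoter, chr7:46845554-46845803, + strand: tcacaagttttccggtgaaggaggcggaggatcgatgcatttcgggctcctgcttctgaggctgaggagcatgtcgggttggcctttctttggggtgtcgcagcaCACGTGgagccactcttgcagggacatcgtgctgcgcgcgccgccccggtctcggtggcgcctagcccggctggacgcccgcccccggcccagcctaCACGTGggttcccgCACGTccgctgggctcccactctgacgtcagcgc
Ldhb promoter, chr6:142507958-142508207, - strand: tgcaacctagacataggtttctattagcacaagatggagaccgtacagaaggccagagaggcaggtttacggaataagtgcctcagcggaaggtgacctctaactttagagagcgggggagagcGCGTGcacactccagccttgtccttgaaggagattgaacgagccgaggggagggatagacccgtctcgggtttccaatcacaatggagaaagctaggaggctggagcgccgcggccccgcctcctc
Eno2 promoter, chr6:124769674-124769923, - strand: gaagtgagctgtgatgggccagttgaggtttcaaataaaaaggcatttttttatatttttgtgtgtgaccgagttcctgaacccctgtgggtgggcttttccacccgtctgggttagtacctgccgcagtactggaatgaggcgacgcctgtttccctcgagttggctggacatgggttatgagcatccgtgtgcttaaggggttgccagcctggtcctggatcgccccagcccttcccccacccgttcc
Slc16a1 holds the CACGTG palindrome and 2 GCGTG matches, Ddit4 holds 1 match of each kind, and the first Ldha window holds 5 strand matches to ACGTG. The second Ldha window, chr7:46846832-46847081, holds 0 ACGTG and 1 GCGTG match. Ldhb holds 1 GCGTG match and Eno2 none. At least 1 match lay in 38 of 48 windows of 33 members (79.2%), and in 38.6% of the 32851 windows of all genes. By gene these were 30 of the 33 members and 11226 of 27025 genes. Windows of 1 gene can overlap and share a match, and the 33 include Gpi1, Eno1 and Gapdh, which did not enter the tests. The list was picked by function, with the hypoxia response in it, so these shares say nothing about the arrays. ACGTG lay in 50.0% of member windows and 16.6% of all windows, and GCGTG in 54.2% and 28.2%. The members' windows also had a median GC content of 62.0%, against 52.4% for all windows, and its part in these shares was not tested. The called genes thus include windows with and without a match, and a match shows these letters only.

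The genes of the lactate dehydrogenase subunits had differences of opposite sign in both combinations, and neither passed the test. Ldha, the subunit that favours lactate production, read 16386, 14170 and 10776 in O(5R)SK and 16926, 15050 and 12913 in O(WT)SK. Its difference of -0.50 missed the threshold (limma, SE 0.107, adjusted p = 0.0581), and so did the -0.41 after quantile normalization (adjusted p = 0.0676). Ldhb, the subunit that favours use of lactate, read 857.0, 866.4 and 1102 in O(5R)SK and 640.3, 765.2 and 1073 in O(WT)SK, a difference of 0.54 (SE 0.128, adjusted p = 0.0691). Its other 3 probe sets gave 0.51, 0.50 and 0.95. Each day 7 array was below both day 3 arrays for Ldha and above both for Ldhb. The day 7 minus day 3 value of Ldhb less that of Ldha was 0.96 in O(5R)SK and 1.12 in O(WT)SK, and 0.80 and 1.08 after quantile normalization, with no test of this difference.

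Whether these 2 genes were called depended on the setting. Both passed with a pseudocount of 64 (adjusted p = 0.0270 for Ldha and 0.0337 for Ldhb), with a 60th percentile filter (0.0183 and 0.0218) and with a trended robust prior (0.00406 and 0.00608). Ldhb also passed with the mean of its probe sets (limma, adjusted p = 0.0408), where Ldha did not (0.0677). Over the array, the first 3 of these settings called 1971 of 12635, 2202 of 9879 and 2846 of 12622 genes. The main fit called 1287 of 12622.

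Of the pyruvate dehydrogenase kinases, none passed. Pdk1, the kinase best known as a HIF1A target, read 397.1, 456.2 and 682.1 in O(5R)SK and 446.6, 392.6 and 475.7 in O(WT)SK, a day 7 minus day 3 difference of 0.42 (SE 0.182, adjusted p = 0.201). The highest value belonged to the O(5R)SK day 7 array. Pdk3 had a difference of -0.30 (adjusted p = 0.198) and Pdk2 one of 0.12 (adjusted p = 0.648). Slc16a3 (MCT4), the lactate exporter of glycolytic cells, read 54.6, 43.9 and 37.5 in O(5R)SK and 50.3, 42.3 and 40.04 in O(WT)SK, close to the intensity filter of 33.5 (difference -0.32, adjusted p = 0.118).

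Among the remaining enzymes of glycolysis, 0 of 12 passed the test, where 6.52% of all tested genes were called higher and 3.68% lower. Hexokinases phosphorylate glucose on entry: Hk2 read 2636, 2746 and 2785 in O(5R)SK and 2247, 2392 and 2664 in O(WT)SK (difference 0.16, adjusted p = 0.348), and Hk1 gave 0.10 (adjusted p = 0.516). Pfkfb3, whose product makes the activator of phosphofructokinase, had the most negative difference of all members on its brightest probe set, -0.66 (SE 0.190, adjusted p = 0.103). Its other probe set, at a mean intensity of 28.1, gave 0.31, the mean of both gave -0.17 (adjusted p = 0.760), and without the O(WT)SK day 7 array the value was -0.43. The brightest set read 448.1, 298.9 and 302.5 in O(5R)SK and 344.0, 321.7 and 194.4 in O(WT)SK, with the low values on days 5 and 7 in O(5R)SK and on day 7 in O(WT)SK. The phosphofructokinase subunits had values of opposite sign, -0.35 for Pfkl, the liver form, and 0.43 for Pfkm, the muscle form (adjusted p = 0.141 and 0.149). The platelet form Pfkp gave -0.10 (adjusted p = 0.646). Aldoc, an aldolase best known from brain, gave 0.13 (adjusted p = 0.655), with 0.35 in O(5R)SK and -0.08 in O(WT)SK.

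Of the bright enzymes of the shared trunk, 5 that were tested read lower on day 7 than on day 3 in both combinations with the deposited scaling. The differences were -0.28 for the aldolase Aldoa, -0.26 for triosephosphate isomerase Tpi1, -0.34 for phosphoglycerate kinase Pgk1, -0.24 for phosphoglycerate mutase Pgam1 and -0.15 for the pyruvate kinase Pkm, with adjusted p between 0.108 and 0.591. Quantile normalization brought them to -0.22, -0.18, -0.25, -0.16 and -0.10, and left Pkm at -0.21 in O(5R)SK and 0.01 in O(WT)SK. Gapdh, which was not among them, gave -0.35 in O(5R)SK and 0.02 in O(WT)SK on its brightest control probe set. With the deposited scaling, the median change within O(5R)SK was -0.34 over the 7 bright members tested (Hif1a among them) and -0.15 over all 973 genes with a mean intensity over 5000. Within O(WT)SK these medians were -0.18 and -0.00. Several probe sets of Aldoa and Tpi1 are of the type that can pick up similar sequences elsewhere.

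In the hypoxia response, Ddit4 was the only 1 of 8 members to pass, against 6.52% of all tested genes called higher and 3.68% lower. Hif1a itself read 5242, 5415 and 5348 in O(5R)SK and 5396, 4823 and 5103 in O(WT)SK (day 7 minus day 3 difference -0.03, 95% interval -0.30 to 0.25, adjusted p = 0.889). Its protein is set mainly by degradation, which an array does not see. Egln3 (PHD3), a prolyl hydroxylase that HIF1A induces, gave 0.31 (adjusted p = 0.136), and Egln1 (PHD2), the main oxygen sensor, -0.12 (adjusted p = 0.458). The mitophagy gene Bnip3 gave -0.03, the ankyrin repeat gene Ankrd37 -0.30, and P4ha1, a collagen prolyl hydroxylase, -0.28 (adjusted p = 0.829, 0.121 and 0.149). Vegfa, the angiogenic growth factor, gave 0.16 (adjusted p = 0.504), but its other probe set gave -0.37. The hypoxia-response members therefore did not share a direction: 3 had a positive and 5 a negative difference.

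**Figure D3:**
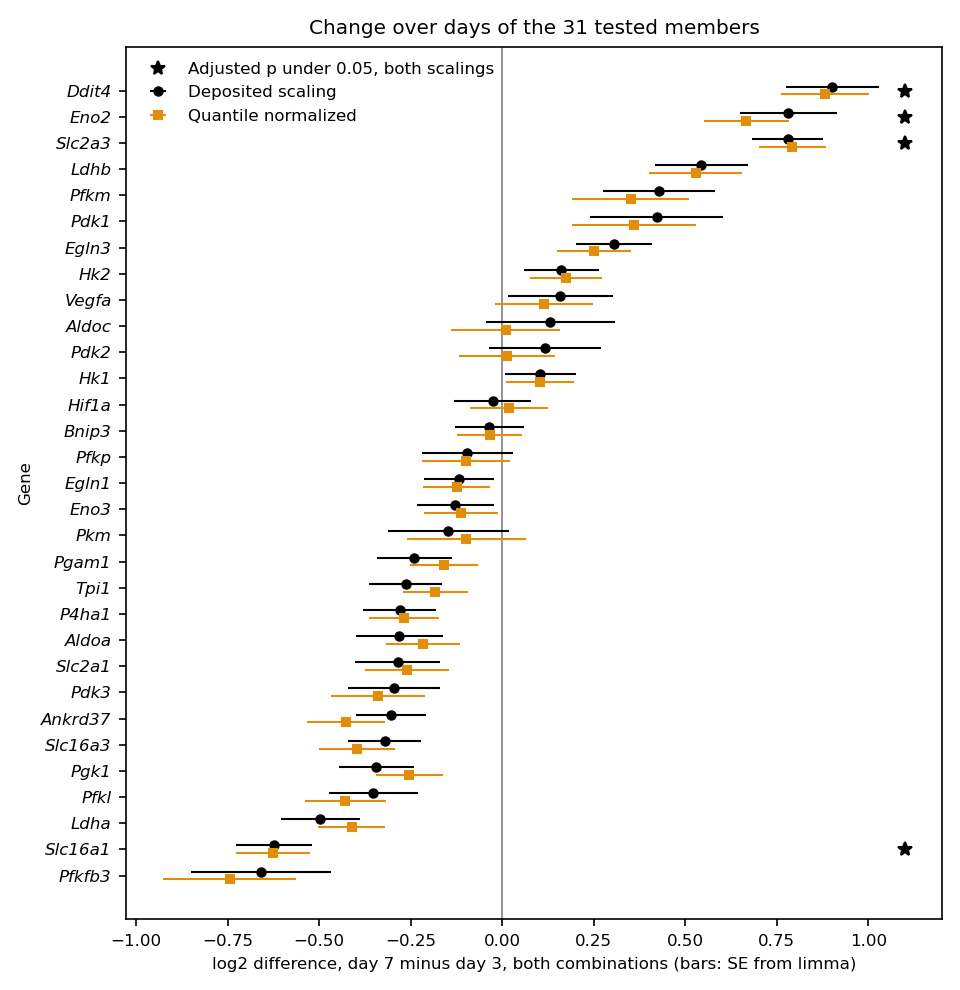
Log2 difference of day 7 minus day 3 over both combinations (x axis) for the 31 tested members (y axis, in order of the difference), with limma's SE as bars, for the deposited scaling (black) and after quantile normalization (orange). Stars mark Ddit4, Eno2, Slc2a3 and Slc16a1, the 4 members past the threshold under both scalings, and the values run from -0.66 for Pfkfb3 to 0.90 for Ddit4.

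Over the 31 tested members the median difference of day 7 minus day 3 was -0.12, with 19 negative and 12 positive, against 0.03 over all tested genes. After quantile normalization it was -0.10, against -0.01. Both day 7 arrays lay below both day 3 arrays for 15 of the 31 (48.4%), a pattern that 26.2% of tested genes showed, and 29.5% after quantile normalization. Both lay above for 9 of the 31 (29.0%), against 31.5% of tested genes, and 27.8% after quantile normalization, with the same 15 and 9 members under both scalings. The 15 were Slc2a1, Pfkl, Pfkfb3, Aldoa, Tpi1, Pgk1, Pgam1, Ldha, Slc16a1, Slc16a3, Pdk3, Egln1, Bnip3, Ankrd37 and P4ha1. The 9 were Slc2a3, Hk1, Hk2, Pfkm, Eno2, Ldhb, Pdk1, Egln3 and Ddit4. Setting all arrays to a common median moved the median of all genes from 0.03 to -0.07 and the calls over the array to 578 higher and 593 lower, against 823 higher and 464 lower, and left the 4 called members as they were.

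Markers of other cell types moved with day as well. The summed intensity of 14 macrophage and leukocyte markers was 11518, 6560 and 4985 on days 3, 5 and 7 in O(5R)SK and 11890, 7085 and 5326 in O(WT)SK. Of the 13 tested, 9 were called lower on day 7, and 7 after quantile normalization, against 3.68% and 4.07% of all tested genes. Laptm5 went the other way, at 547.7, 687.3 and 775.0 in O(5R)SK and 332.3, 429.1 and 376.9 in O(WT)SK. Of 6 smooth muscle markers 4 were called lower, of 10 fibroblast markers 2 (Thy1 and Postn), of 6 skeletal muscle markers 1 lower and 1 higher, and of 3 adipocyte markers 1 lower. Of 7 epithelial markers 2 were called higher and 1 lower, and of 5 neuron markers 0 were called. Of 5 pluripotency markers 3 were called higher (6 further ones were not tested), and 2 after quantile normalization, against 6.52% and 5.13% of all tested genes. The counts of the other marker lists did not change with quantile normalization, apart from the macrophage and leukocyte list. The 11 pluripotency markers together read 225.2, 334.7 and 916.5 in O(5R)SK and 147.9, 314.3 and 406.3 in O(WT)SK. Most of the 916.5 came from Fbxo15 and Tfcp2l1, which read 349.5 and 276.4 on that 1 array. Nanog, Zfp42 and Sall4 stayed between 2.15 and 22.7 on all arrays. None of these lists had all its markers at 0, which does not show that each cell type was present. Nanog, Myog, Myh3 and Adipoq, for instance, read below the filter intensity of 33.5 on all 6 arrays. In bulk RNA, fewer cells of a type and less RNA per cell cannot be told apart, and the part of these markers in the members' changes was not tested.

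Further genes of the same pathways were called mostly higher, as were all tested genes (6.52% higher and 3.68% lower), though with a common median the calls over the array were 578 higher and 593 lower. Of 26 further glycolysis and pyruvate genes tested, of 38 listed, 4 were called higher on day 7 and 0 lower, and after quantile normalization 2 and 0. Pcx, pyruvate carboxylase, which feeds pyruvate into the citric acid cycle as oxaloacetate, changed most: it read 145.9, 228.8 and 544.1 in O(5R)SK and 117.9, 171.3 and 408.1 in O(WT)SK, a difference of 1.73 or 3.31-fold (limma, SE 0.099, adjusted p = 0.00765). The other 3 were the sugar transporter Slc2a6 (0.97) and Pfkfb2 and Pfkfb4 (0.74 and 0.61), which belong to the same enzyme family as Pfkfb3. Their direction was opposite to that of the brightest Pfkfb3 probe set and the same as that of its dimmer one, and the difference between these genes was not tested. Slc2a6, at intensities of 49.1 to 127.3, and Pfkfb4 were not called after quantile normalization.

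Of 32 further hypoxia-response genes tested, of 39 listed, 5 were called higher and 1 lower, against 6.52% and 3.68% of all tested genes. After quantile normalization these counts were 3 and 1, against 5.13% and 4.07%. Adm, the vasodilator peptide adrenomedullin, read 1793, 858.7 and 778.0 in O(5R)SK and 2020, 1171 and 872.7 in O(WT)SK, a difference of -1.19 (limma, SE 0.119, adjusted p = 0.0145). Those higher included Tmem45a (1.19, adjusted p = 0.0142), the transcriptional repressor Bhlhe40 (0.80, adjusted p = 0.0229), Epas1, which encodes HIF2A (0.72, adjusted p = 0.0266), and the carbonic anhydrase Car12 (0.70, adjusted p = 0.0360). Car12, at intensities of 46.0 to 93.6, was not called after quantile normalization. Hypoxia-response genes were thus called in both directions, as were all tested genes. In the pentose phosphate list 1 of 9 tested was called, the ribose phosphate enzyme Prps2 (0.67, adjusted p = 0.0391). Among regulators of glycolysis 1 of 10 was called, Prkaa2, a catalytic subunit of AMPK (0.65, limma, adjusted p = 0.0354). Both are single calls in short lists, where 6.52% of all tested genes were called higher.

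Setting O(5R)SK against O(WT)SK on the same days asks whether the version of OCT4 alters these genes. No member passed the test, 0 of 31, and neither did any of the 12622 tested genes (0.0% higher and 0.0% lower), while 1180 genes had an unadjusted p under 0.05. The count was 0 after quantile normalization too (0.0% and 0.0%). The members' adjusted p ran from 0.496 to 0.96. Their median difference was 0.04, with 18 positive and 13 negative, against -0.01 over all tested genes. Tested with a pseudocount of 64, a 60th percentile filter or a trended robust prior, limma called 2, 27 and 82 genes of the array and 0 members.

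Pdk2, a pyruvate dehydrogenase kinase, had the largest difference of the members. It read 56.9, 40.6 and 68.7 on days 3, 5 and 7 in O(5R)SK and 38.8, 37.0 and 39.5 in O(WT)SK, so all 3 O(5R)SK arrays were above all 3 O(WT)SK arrays. The difference was 0.37, or 1.29-fold (limma, SE 0.125, unadjusted 95% interval 0.04 to 0.70, adjusted p = 0.496), at intensities near the filter. Pfkfb3 followed with 0.29 (SE 0.155, adjusted p = 0.630), but its days disagreed, at 0.37, -0.10 and 0.60. Its second probe set gave -0.44, and the mean of both -0.08. Egln3 read 475.2, 524.4 and 582.5 in O(5R)SK and 414.8, 411.8 and 524.0 in O(WT)SK, a difference of 0.22 (SE 0.085, adjusted p = 0.533), and its second probe set gave 0.54. The O(5R)SK array was the higher one for Egln3 on each day.

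The other end of the range was narrower. Ankrd37 gave -0.16 (SE 0.079, adjusted p = 0.610), with the lower value in O(5R)SK on all 3 days, and Ldha -0.13 (SE 0.087, adjusted p = 0.673). The unadjusted 95% interval for Ldha, -0.36 to 0.10, and that for Hif1a, -0.16 to 0.29, leave room for modest differences either way. For Slc2a3 it ran from -0.06 to 0.35, for Slc2a1 from -0.06 to 0.44 and for Ldhb from -0.07 to 0.48.

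Members with the higher value in O(5R)SK on all 3 days were Slc2a1, Slc2a3, Hk1, Hk2, Ldhb, Pdk2 and Egln3, 7 of 31 (22.6%), against 15.9% of tested genes. Those with the lower value on all 3 days were Pgk1, Ldha, Bnip3 and Ankrd37, 4 of 31 (12.9%), against 17.9%. Quantile normalization added Vegfa to the first group and Tpi1 to the second, against backgrounds of 15.5% and 19.0%. Both transporters and both hexokinases, the genes of glucose entry, were thus among those higher on all 3 days, by 0.19 for Slc2a1, 0.15 for Slc2a3, 0.16 for Hk2 and 0.04 for Hk1. Other probe sets went against this, at -0.06 for 1 set of Slc2a1, -0.12 for 1 of Slc2a3 and -0.36 for the second of Hk1. In the lower group, the other sets of Pgk1 gave 0.01 and 0.63 on day 7, and means of -0.04 and 0.18 over the 3 days.

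Differences of at least 1.5-fold on a single day were seen in 0, 0 and 2 of 31 members on days 3, 5 and 7, against 5.69%, 6.65% and 8.86% of tested genes. The 2 were Pfkfb3 and Pdk2 on day 7, and after quantile normalization there were 0, against 8.6%. Pdk1 (0.51), Aldoc (0.51) and Vegfa (0.42) also stood above O(WT)SK on day 7 by values that rest on 1 array a side. The other probe set of Vegfa gave -0.36 on day 7. For Pdk1 the other 3 probe sets pointed the other way over the 3 days, with means of -0.25, -0.11 and -0.20 against 0.18 for the brightest.

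**Figure D4:**
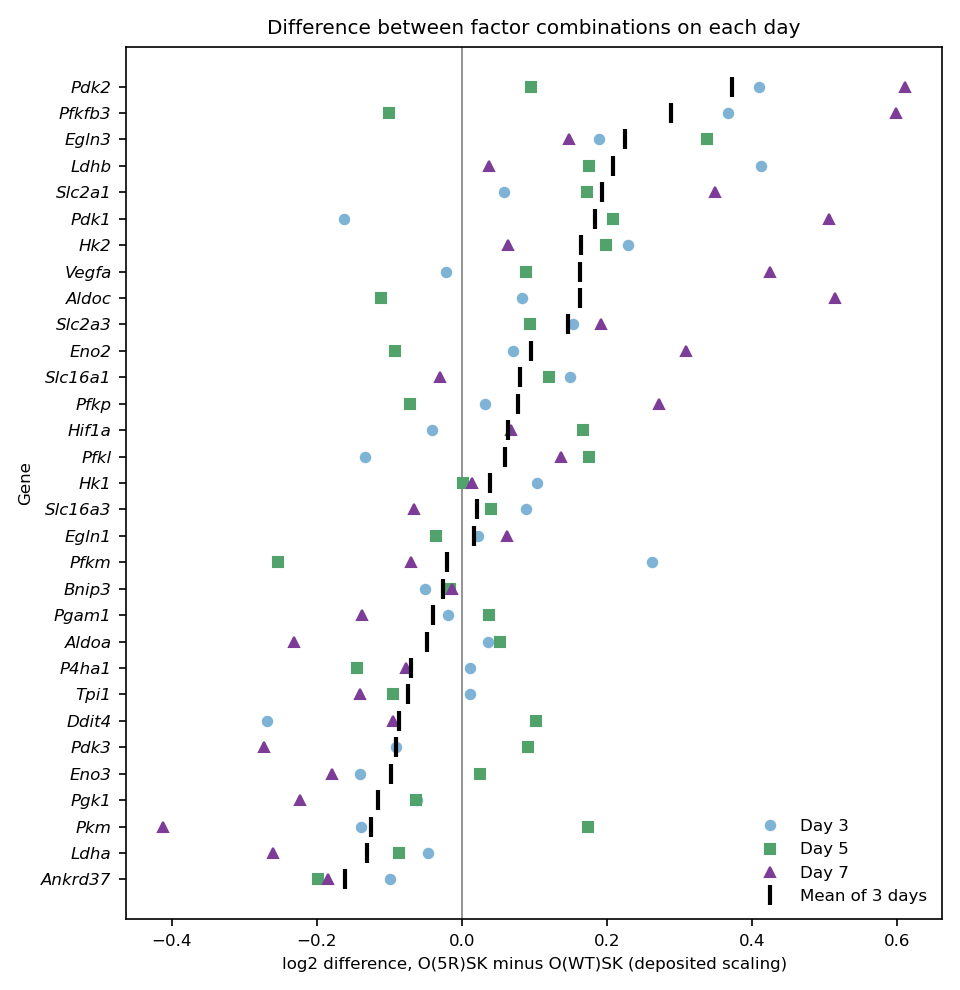
Log2 difference of O(5R)SK minus O(WT)SK (x axis, deposited scaling) for the 31 tested members (y axis, in order of the mean) on day 3 (blue circles), day 5 (green squares) and day 7 (purple triangles), with the mean of the 3 days as a black bar. The means run from -0.16 for Ankrd37 to 0.37 for Pdk2, and for most members the days fall on both sides of 0.

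On day 7 most bright members stood lower in O(5R)SK on their brightest probe sets, and so did the bright genes as a whole. Of the 7 bright members tested, 6 were lower, with a median of -0.22, against a median of -0.15 for the 973 genes with a mean intensity over 5000. After quantile normalization the medians were -0.11 and -0.06. Pkm had the most negative of these values, -0.41, and -0.37 after quantile normalization. Other probe sets of Pgk1, Tpi1 and Aldoa did not all read lower on day 7 with the deposited scaling. Those of Pgk1 gave 0.01 and 0.63, those of Tpi1 -0.16 and 0.23, and those of Aldoa -0.14, -0.37, 0.11 and 0.27. Gapdh, the glycolytic dehydrogenase that many assays use as a standard, read 28422, 27753 and 22272 in O(5R)SK and 29257, 30980 and 29650 in O(WT)SK on its brightest control probe set. When Gapdh was put into the fit, its difference between combinations was -0.20 (limma, adjusted p = 0.618), and -0.06 after quantile normalization (adjusted p = 0.788). Its day 7 minus day 3 difference was -0.17 (adjusted p = 0.437), and -0.05 after quantile normalization (adjusted p = 0.749).

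**Figure D5:**
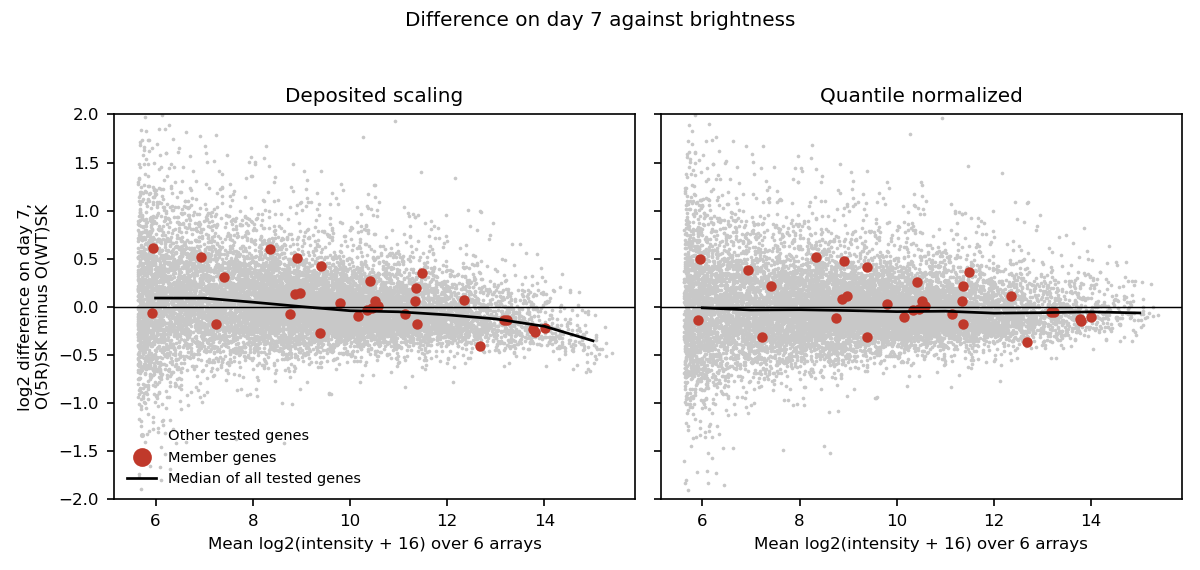
Log2 difference of O(5R)SK minus O(WT)SK on day 7 (y axis, cut at -2 and 2) against mean log2(intensity + 16) over the 6 arrays (x axis), for members (red), other tested genes (grey) and the median of all tested genes in steps of brightness (black line), with the deposited scaling (left) and after quantile normalization (right). The black line drops below 0 at the bright end in the left panel, where the bright members lie, and stays near 0 in the right panel.

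Whether the change over days differed between the combinations was tested as a difference of slopes, given per 4 days. None of the 31 members passed, and neither did any gene of the array (0.0% higher and 0.0% lower). There were 949 genes with an unadjusted p under 0.05, and limma called 2 genes with a trended robust prior. Pdk1 had the largest difference of slopes, 0.67 (SE 0.283, adjusted p = 0.694), followed by Vegfa with 0.45 (SE 0.213, adjusted p = 0.709), and the most negative was that of Ldhb, -0.37 (SE 0.228, adjusted p = 0.739). For Pdk1 the change of day 7 from day 3 was 0.76 in O(5R)SK and 0.09 in O(WT)SK, and in its other 3 probe sets it was 0.30, -0.05 and -0.50 in O(5R)SK against 0.64, 0.40 and 0.69 in O(WT)SK. Vegfa read 600.5, 713.1 and 787.3 in O(5R)SK and 610.3, 669.8 and 582.8 in O(WT)SK. Its other probe set gave a change of day 7 from day 3 of -0.44 in O(5R)SK and -0.30 in O(WT)SK, an order opposite to that of the brightest set. For Ldhb this change was 0.36 in O(5R)SK and 0.73 in O(WT)SK on the brightest set. The other Ldhb sets gave 0.53, 0.57 and 0.76 in O(5R)SK against 0.48, 0.44 and 1.14 in O(WT)SK. The order was thus reversed in the sets at 0.53 and 0.57.

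The further lists held no call between the combinations either, 0 of 26 glycolysis and pyruvate genes, 0 of 32 hypoxia-response genes, 0 of 9 pentose phosphate genes and 0 of 10 regulators. The largest differences were -0.95 for Gapdhs, the sperm form of the dehydrogenase, at intensities of 14.4 to 83.3, -0.94 for Hif3a, an inhibitor of the HIF response, at 20.2 to 104.2, and 0.65 for the nuclear receptor Esrrg at 21.1 to 68.7. Prkaa1, the other catalytic subunit of AMPK, read 344.3, 407.5 and 495.2 in O(5R)SK and 318.4, 283.2 and 336.0 in O(WT)SK, a difference of 0.38 (limma, SE 0.118, adjusted p = 0.479). It was higher in O(5R)SK on each day, as single pairs of arrays.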

How the data were processed

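Expression was measured on 6 Affymetrix arrays. The deposited values are linear intensities, 1 per probe set; the submitters' processing notes name affy, which the authors used. Its version is not given in the sources used here, nor is the way probes were summarised or background was removed. Groups and days came from the labels, and 0 columns went unused. Of 45101 probe sets, 34945 name 1 gene and are no control, and the 64 control probe sets were kept out, except that Gapdh was added in an alternative chosen after seeing the data. Gene names are those of GEO's platform annotation.

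From the deposited intensities, log2(intensity + 16) was computed, and genes with a mean above the 40th percentile of probe set means (log2 5.63) were tested with limma 3.58.1 in R 4.3.3 (with version 1.17.8 of data.table), with combination and day as terms, 2 residual degrees of freedom and Benjamini-Hochberg adjustment over all tested genes at 0.05. Slopes were compared in a second fit that took day as a number. Every member is reported whatever its values; of each further list, the called genes were eligible to be named, at most the 5 largest, or the 2 largest where none was called. The members, the further lists and the markers were chosen with earlier results of these data known. The fits were tested on simulated data. Tables and figures used Python 3.11.15, pandas 2.3.3 and matplotlib 3.10.9. Alternatives were quantile normalization, a common median, other pseudocounts (1 and 64), filters, the mean of probe sets, a trended robust prior and leaving out each array.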

Additional observations from a re-analysis of the deposited data

How the results depend on the processing

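The number of arrays limits the precision: each combination and day is 1 array, and leaving out an array leaves the other combination alone on that day. For day 7 minus day 3, 4 members were called (3 higher, 1 lower). The count was 0 with no intensity filter (0 higher, 0 lower, where more genes were tested), 7 with a 60th percentile filter (3 lower), and 10 with a trended robust prior (6 lower), and leaving out 1 array gave 0 to 3 in all, 0 to 3 higher and 0 to 0 lower, the lowest counts without any one array of day 3 or day 7. With a pseudocount of 64 there were 2 lower, and with the mean of probe sets 0 lower, where Slc16a1 gave -0.37 (limma, adjusted p = 0.126); the cause was not tested. Over the array, limma called 1287 of 12622 genes for this comparison (823 higher, 464 lower) and 0 of 18193 without a filter. It called 1971 of 12635 with a pseudocount of 64 (777 lower) and 2202 of 9879 with a 60th percentile filter (955 lower). With a trended robust prior it called 2846 of 12622 (1276 lower), and with the mean of probe sets 881 of 11998 (307 lower). The settings that called more members than the main fit thus also called more genes over the array. The members' median difference of day 7 minus day 3, -0.12, was -0.10 after quantile normalization, -0.22 with a common median and -0.17 with the mean of probe sets, and ran from -0.133 to -0.0841 when 1 array was left out. The median of O(5R)SK minus O(WT)SK, 0.0393, became 0.0045 with a common median and -0.0268 with the mean of probe sets, with 0.0135 to 0.0422 when 1 array was left out. On day 7 alone this median was 0.0132, and -0.106 and -0.0253 under these settings. These medians are small beside the spread between members. The calls of O(5R)SK against O(WT)SK and of the difference of slopes stayed at 0 members under every alternative run. The sign turned in 35 of 431 member values for O(5R)SK minus O(WT)SK (17 of 31 members) and in 9 of 431 for day 7 minus day 3 (6 of 31). Each group is a single array, so replicate number could not be added as a block; the fit already sets O(5R)SK against O(WT)SK within each day.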
